A study of Homo sapiens with 2 samples.

Results

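The TWIST1-positive cells of LNCaP_FGC were the cells of that library with at least 1 unique molecular identifier (UMI, the tag that marks 1 captured RNA molecule) of TWIST1. They were chosen by this count, and they numbered 468 of 1850 LNCaP_FGC cells and 468 of 3700 cells in the series. LNCaP_FGC is the widely used, never cloned stock of a prostate carcinoma line that was established from a lymph node metastasis. The second library was LNCaP_C4-2B, which grows without androgen and was obtained from LNCaP by passage in castrated mice. Both were grown untreated in RPMI1640 with serum and antibiotic and were profiled by 10x Genomics 3′ single-cell RNA-Seq, with 1 library each. Their batch labels differ, so a difference between the lines and one between batches cannot be told apart.

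The remaining 1382 LNCaP_FGC cells had 0 TWIST1 UMIs and are called TWIST1-zero cells below. A count of 0 in droplet data does not show that a cell lacks the RNA. TWIST1 itself was left out of all totals, levels and ratios. Levels are CPM (counts per 1e6 UMIs, from UMIs summed over the cells of a group), and a ratio is the CPM of TWIST1-positive over that of TWIST1-zero cells with its exact conditional 95% interval. Since cells of 1 library are not replicates, no significance test was run, and all intervals cover counting error only.

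TWIST1 encodes a basic helix-loop-helix transcription factor of mesoderm and neural crest. It binds E-box DNA as a dimer, often with the E proteins TCF3, TCF4 and TCF12, and the ID proteins hold E proteins away from such dimers. In carcinoma it is best known as an inducer of epithelial-to-mesenchymal transition (EMT), the loss of cell junctions with gain of mesenchymal genes. TWIST1 lies on chromosome band 7p21, as does ETV1, an ETS family transcription factor gene that is rearranged in LNCaP.

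TWIST1-positive cells made up 25.3% of LNCaP_FGC (95% exact binomial interval 23.3 to 27.3). LNCaP_C4-2B had 2 such cells of 1850 (0.108%, 0.0131 to 0.390) at a median depth of 17566.5 UMIs per cell, close to the 18292 of LNCaP_FGC. The counts that chose the cells were low. Just inside the rule lay 272 cells with 1 TWIST1 UMI, and just outside it lay the 1382 cells with 0. A further 87 cells had 2 UMIs and 109 had at least 3, with a maximum of 31 in a single cell. The 10 cells with most held 143 of the 975 TWIST1 UMIs (14.7%). Had TWIST1 been the same share of the RNA in every cell, 1108 cells (59.9%) would be expected at 0, against 1382 (74.7%) seen. No cell barcode was shared by the libraries.

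TWIST1-positive cells were somewhat deeper. They had 8988 to 50199 UMIs per cell with a median of 20044.5, against 9068 to 51088 with a median of 17795 in TWIST1-zero cells. The TWIST1-positive share was higher in each of the 5 depth classes (equal numbers of cells, by UMIs per cell) than in the one before, from 17.0% in the shallowest to 35.7% in the deepest. Genes per cell had a median of 5036 against 4856. When cells were thinned to 11452 UMIs each, which left out 34 TWIST1-positive and 151 TWIST1-zero cells, the order turned, with 3687 against 3829 genes. That comparison kept the classes of the deposited counts. All other values given at equal depth or after thinning used classes set again from the thinned TWIST1 counts. Of the 434 TWIST1-positive cells kept, 307 still had a TWIST1 UMI. The others counted as TWIST1-zero there, a class of 1358 cells. The median mitochondrial share of UMIs was 6.08% against 6.02%, and the ribosomal protein share was 24.3% against 22.4%.

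ETV1 RNA was more often detected in TWIST1-positive cells. At least 1 ETV1 UMI was present in 441 of 468 TWIST1-positive cells (94.2%, 91.7 to 96.2) and in 799 of 1382 TWIST1-zero cells (57.8%, 55.2 to 60.4). After thinning to equal depth the shares were 88.9% and 54.3%. All 109 cells with at least 3 TWIST1 UMIs had ETV1 UMIs. The median ETV1 count was 5 UMIs per TWIST1-positive cell and 1 per TWIST1-zero cell, and the ETV1 level was 246 against 119 CPM, 2.06-fold higher (1.95 to 2.17). Among cells with ETV1 UMIs alone it was 1.28-fold higher (1.22 to 1.36). Seen from the other side, 27 of 610 ETV1-zero cells (4.43%) and 441 of 1240 ETV1-positive cells (35.6%) were TWIST1-positive. In ETV1-positive cells the share went from 26.0% to 45.3% across the depth classes, whereas in ETV1-zero cells it lay between 2.41% and 5.98% with no order, as the plot of shares by depth shows. The ETV1-zero cells had a median depth of 16884 UMIs where TWIST1-positive and 17125 where TWIST1-zero. The share in LNCaP_C4-2B, above, was lower still. In LNCaP_FGC at equal depth, 5.20% of cells with 0 ETV1 UMIs were TWIST1-positive, 21.2% with 1 and 24.2% with 2 or 3. The share there was 34.6% with 4 to 7, and 51.9% (31.9 to 71.3) in the 27 cells with 8 or more. TWIST1 RNA was thus detected mostly, though not only, in cells with ETV1 RNA, and most ETV1-positive cells had no TWIST1 UMI.

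**Figure D1:**
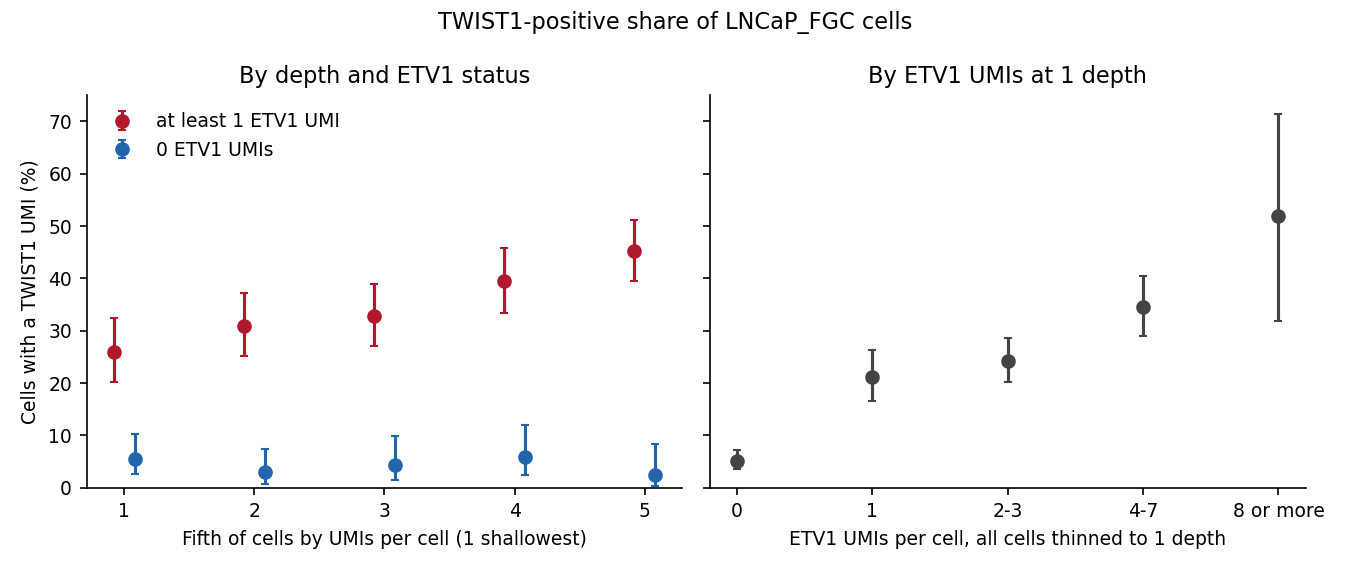
Percent of LNCaP_FGC cells with a TWIST1 UMI (y axis). Left, by class of UMIs per cell (5 of equal size), split by ETV1 status. Right, by ETV1 UMIs per cell in the 1665 cells thinned to equal depth, with TWIST1 also counted after thinning. Points are shares and bars are exact binomial 95% intervals: ETV1-positive cells go from 26.0% to 45.3% with depth, ETV1-zero cells stay at or below 5.98%, and at equal depth the share runs from 5.20% to 51.9%.

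Cell cycle phase, called from S and G2M marker genes, also differed. Of TWIST1-positive cells 51.3% (46.7 to 55.9) were called G1, 25.2% S and 23.5% (19.7 to 27.6) G2M. TWIST1-zero cells gave 40.8% (38.2 to 43.5), 24.8% and 34.4% (31.9 to 36.9). The G1 and G2M intervals of the groups did not overlap, while the S shares were alike. The difference was present among ETV1-positive cells, with 52.2% G1 and 23.4% G2M against 40.6% and 33.4%. It was wider with more TWIST1 UMIs: of the cells with at least 3, 66.1% were G1 and 11.0% G2M. With TWIST1 classes set at equal depth, G2M was 21.8% against 32.9%, but phase was still called on the deposited counts.

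**Figure D2:**
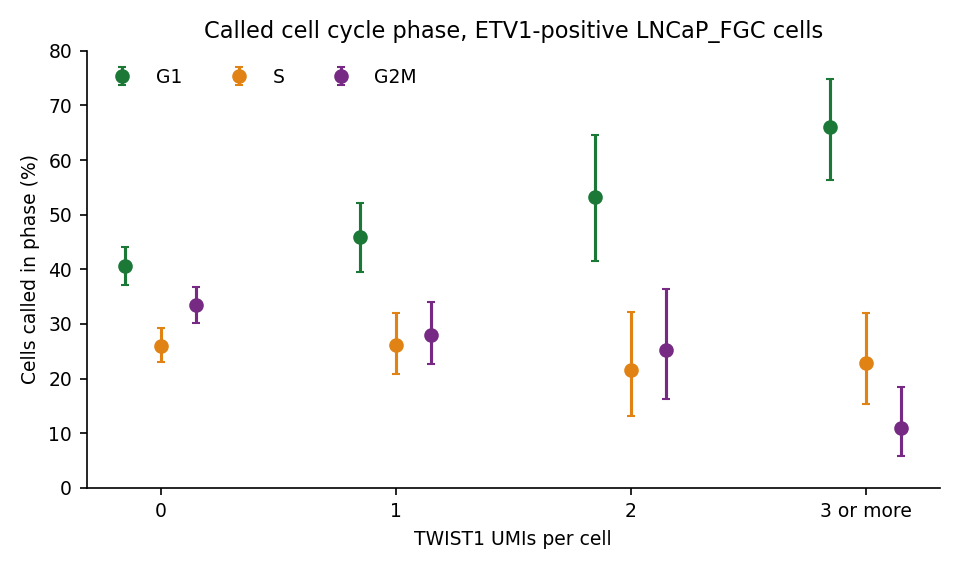
Percent of ETV1-positive LNCaP_FGC cells called in G1, S or G2M (y axis) by TWIST1 UMIs per cell (x axis), with exact binomial 95% intervals. G1 runs from 40.6% at 0 UMIs to 66.1% at 3 or more, and G2M from 33.4% to 11.0%.

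The cells were clustered without TWIST1 and ETV1, with phase scores regressed, to see how the TWIST1-positive cells spread. They were present in all 6 clusters but very unevenly. In cluster 2, led by the prostatic acid phosphatase gene ACPP, TMEM45B and THBS1, 170 of 339 cells (50.1%) were TWIST1-positive, and these were 36.3% of all TWIST1-positive cells. Clusters 1, 4 and 5 held 33.6%, 30.7% and 35.8%. Cluster 0, led by EPHA3 and LIN7A, held 15 of 442 (3.39%), and only 15.4% of its cells were ETV1-positive. Cluster 3, led by FUCA2, ANKRD29 and KCNJ3, held 21 of 279 (7.53%) although 68.8% of its cells had ETV1 UMIs. Among ETV1-positive cells alone, 166 of 323 in cluster 2 (51.4%, 45.8 to 57.0) and 17 of 192 in cluster 3 (8.85%, 5.24 to 13.8) were TWIST1-positive. Cluster 0 was also low among such cells, at 7 of 68 (10.3%, 4.24 to 20.1). Clusters 1, 4 and 5 were there at 47.8% (41.2 to 54.5), 31.0% and 36.2%. At equal depth the shares of all cells in clusters 2 and 3 were 37.6% and 3.24%. The share thus differed between clusters among cells with at least 1 ETV1 UMI, but the ETV1 level was not held fixed. Over all cells of each cluster, ETV1 was at 286 CPM in cluster 2 and 83.8 CPM in cluster 3. The median depth of these clusters was 19297 and 16339 UMIs per cell. KLK3, which encodes prostate-specific antigen, stood at 1751 CPM in cluster 2 and 35.0 CPM in cluster 3. The clusters were not given cell type names.

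Of 8888 genes with at least 10 CPM in either group, 88 (0.99%) were at least 1.5-fold higher in TWIST1-positive cells and 173 (1.95%) at least 1.5-fold lower. The median gene was lower by 0.08 on the log2 scale (ratio 0.945), and with ratios taken relative to that gene the counts were 125 and 113. Within ETV1-positive cells 41 of 8828 genes (0.464%) were higher and 95 (1.08%) lower. Of the 88 and 173 genes, 35 and 81 were also past the fold among ETV1-positive cells, which is 85.4% and 85.3% of the calls made there. Another comparison matched the groups on ETV1 status, phase and depth class by a Mantel-Haenszel ratio over 26 strata. ETV1 status meant at least 1 ETV1 UMI or 0, so the ETV1 level was not matched. ETV1 itself was still 1.30-fold higher (1.23 to 1.38) after matching. All 88 and all 173 genes kept their direction in the matched comparison, and 30 and 43 of them stayed past the fold. They had been chosen by their ratios in these same cells, so the kept direction is not independent evidence. Fewer genes were thus past the fold within ETV1-positive cells and after matching than over all cells.

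ACPP was the highest gene among those with at least 20 CPM. Its level was 94.4 CPM in TWIST1-positive and 26.1 CPM in TWIST1-zero cells, 3.62-fold higher (3.27 to 4.002), with 2.63-fold among ETV1-positive cells and 2.37-fold (2.14 to 2.63) after matching. At equal depth 37.1% of TWIST1-positive and 17.5% of TWIST1-zero cells had an ACPP UMI. KLK3 was at 1276 against 592 CPM, 2.16-fold higher (2.11 to 2.21) and 1.44-fold (1.40 to 1.47) after matching. It was detected at equal depth in 96.7% and 66.1% of cells. TRPM8, an androgen-regulated cold-sensing cation channel of prostate epithelium, was at 29.1 against 11.9 CPM, 2.44-fold higher (2.07 to 2.88) and 1.84-fold (1.55 to 2.19) after matching. These 3 belong to the androgen-induced list, of which 5 of 32 members were higher and 2 lower (4.93% and 11.4% of all genes with at least 10 UMIs were), with a median log2 ratio of -0.02.

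Other genes with high ratios had varied roles. THBS1, which encodes the matrix glycoprotein thrombospondin 1, was at 39.6 against 15.5 CPM, 2.55-fold higher (2.21 to 2.94) and 1.80-fold after matching. PKIB, an inhibitor of protein kinase A, was at 196 against 77.6 CPM, 2.53-fold higher (2.37 to 2.69) and 1.74-fold after matching. PEG3, an imprinted zinc finger gene, was at 275.8 against 118 CPM, 2.33-fold higher (2.21 to 2.46) and 1.62-fold after matching, and its ratio differed by phase, at 2.76 in G1, 1.70 in S and 1.19 in G2M. H2AFJ, a replication-independent histone H2A variant, was at 250.0 against 104 CPM, 2.41-fold higher and 1.62-fold after matching, and was detected at equal depth in 71.7% and 36.7% of cells. TMEM45B and RIPOR2 were 2.90-fold and 2.62-fold higher, and 1.87-fold and 1.76-fold after matching.

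OSR2, HPGD and BAMBI were among the 12 highest ratios only after matching. OSR2, a developmental zinc finger factor, was 1.63-fold higher (1.35 to 1.98) there. HPGD, which breaks down prostaglandins, was likewise at 1.63 (1.38 to 1.92), with 31.3 against 18.1 CPM overall. BAMBI, a decoy receptor of TGF-beta and BMP signalling, was at 1.55 (1.28 to 1.88).

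**Figure D3:**
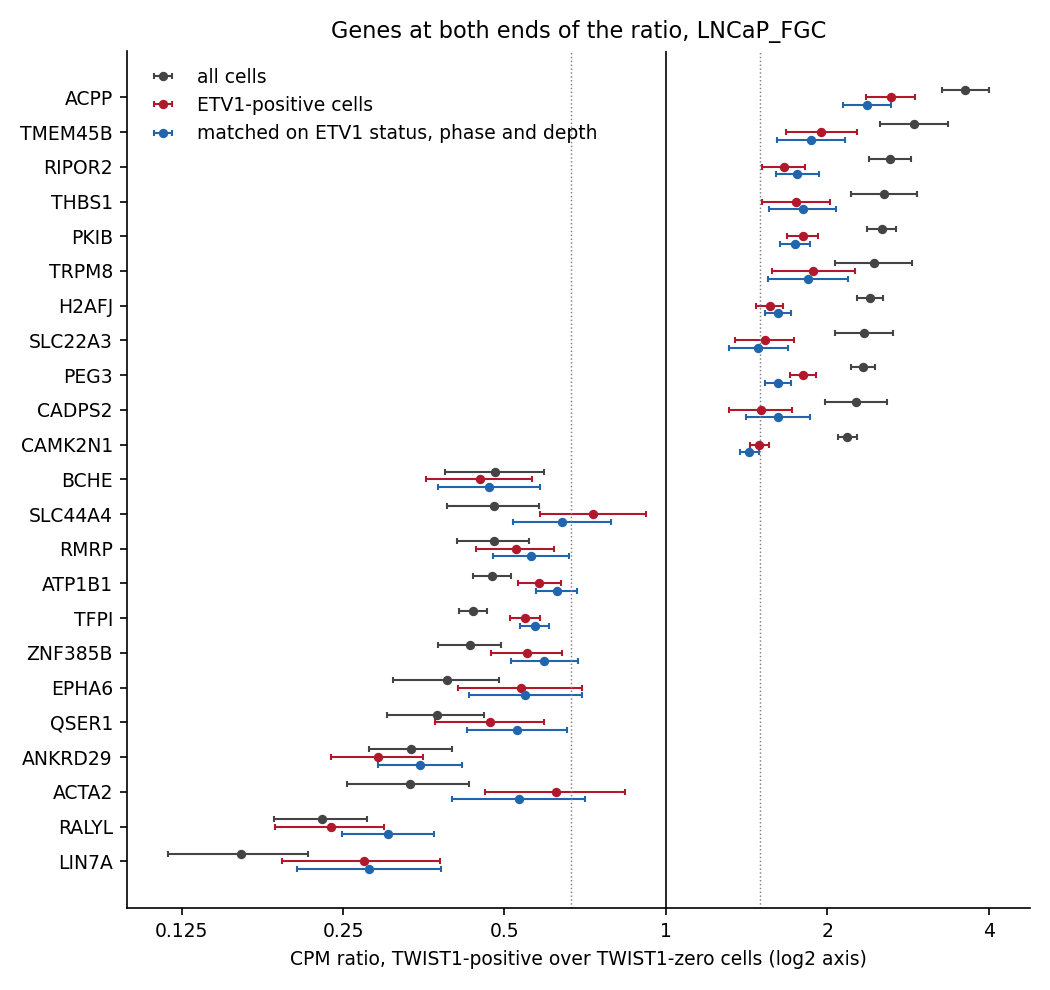
CPM ratio of TWIST1-positive over TWIST1-zero cells (log2 axis) for genes among the 12 highest and the 12 lowest pooled ratios at 20 CPM or more, in all cells, in ETV1-positive cells and matched on ETV1 status, phase and depth. Points are ratios, bars are 95% counting intervals and dotted lines mark 1.5-fold: every gene plotted keeps its side of 1, with ACPP at 3.62, 2.63 and 2.37 and LIN7A at 0.161, 0.273 and 0.280.

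LIN7A, a scaffold protein of polarised membranes and synapses, was the lowest gene. It stood at 5.02 CPM (49 UMIs) in TWIST1-positive and 31.2 CPM (792 UMIs) in TWIST1-zero cells, 6.21-fold lower (4.65 to 8.46), and 3.58-fold lower (2.62 to 4.88) after matching. RALYL, an RNA-binding protein gene, was at 11.3 against 49.4 CPM, 4.38-fold lower (3.60 to 5.38), and 4.22-fold lower among ETV1-positive cells. ANKRD29 was at 14.5 against 43.1 CPM, 2.98-fold lower (2.50 to 3.58), and 3.44-fold lower among ETV1-positive cells. At equal depth 3.26% against 23.0% of cells had a LIN7A UMI, 7.49% against 29.97% a RALYL UMI and 5.86% against 22.4% an ANKRD29 UMI. TFPI, the tissue factor pathway inhibitor that restrains coagulation, was at 135 against 309 CPM, 2.29-fold lower (2.16 to 2.43) and 1.76-fold lower after matching. ATP1B1, the beta subunit of the sodium-potassium pump, was 2.11-fold lower and 1.60-fold lower after matching. The ephrin receptor gene EPHA6 was 2.56-fold lower and 1.83-fold lower after matching. BCHE, which encodes butyrylcholinesterase, was 2.08-fold lower and 2.14-fold lower after matching.

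The lowest genes differed in how far their ratios depended on ETV1 status. The ratios of RALYL, ANKRD29 and BCHE stayed close to or moved further from 1 among ETV1-positive cells, at 0.237, 0.291 and 0.450 against 0.228, 0.335 and 0.481 over all cells. These 3 are leading genes of cluster 3. The ratios of LIN7A, ACTA2, QSER1, EPHA6, ZNF385B and TFPI moved toward 1 among ETV1-positive cells, for ACTA2 from 0.333 to 0.624. These 6 are leading genes of cluster 0, which had few ETV1-positive cells. SLC44A4, ATP1B1 and RMRP, which lead no cluster, also moved toward 1, from 0.478 to 0.732, from 0.475 to 0.581 and from 0.477 to 0.525. Among the 583 TWIST1-zero and 27 TWIST1-positive cells without ETV1 UMIs, ANKRD29 was at a ratio of 1.06 (0.641 to 1.66). RALYL and BCHE were there at 0.824 (0.530 to 1.23) and 0.621 (0.226 to 1.37). These intervals all contain 1, so no direction is read for RALYL, ANKRD29 and BCHE in cells without ETV1 UMIs.

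Levels were also followed by TWIST1 count within ETV1-positive cells. ACPP was at 37.1 CPM in cells with 0 TWIST1 UMIs, 70.2 with 1, 118 with 2 and 142 with at least 3. PEG3 was at 156, 202, 277 and 454 CPM, and KLK3 at 909.6, 1164, 1292 and 1643 CPM. ANKRD29 was at 44.8, 16.4, 17.6 and 2.12 CPM, and RALYL at 38.6, 10.6, 12.5 and 3.39 CPM. The genes chosen as highest were thus higher again in the cells with most TWIST1 UMIs, and the lowest genes were lowest there. These cells were also more often in G1. ETV1 itself was at 201, 241, 267 and 288 CPM over the same classes, so its level was not held fixed. The parts of phase and of ETV1 level in this were not tested.

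**Figure D4:**
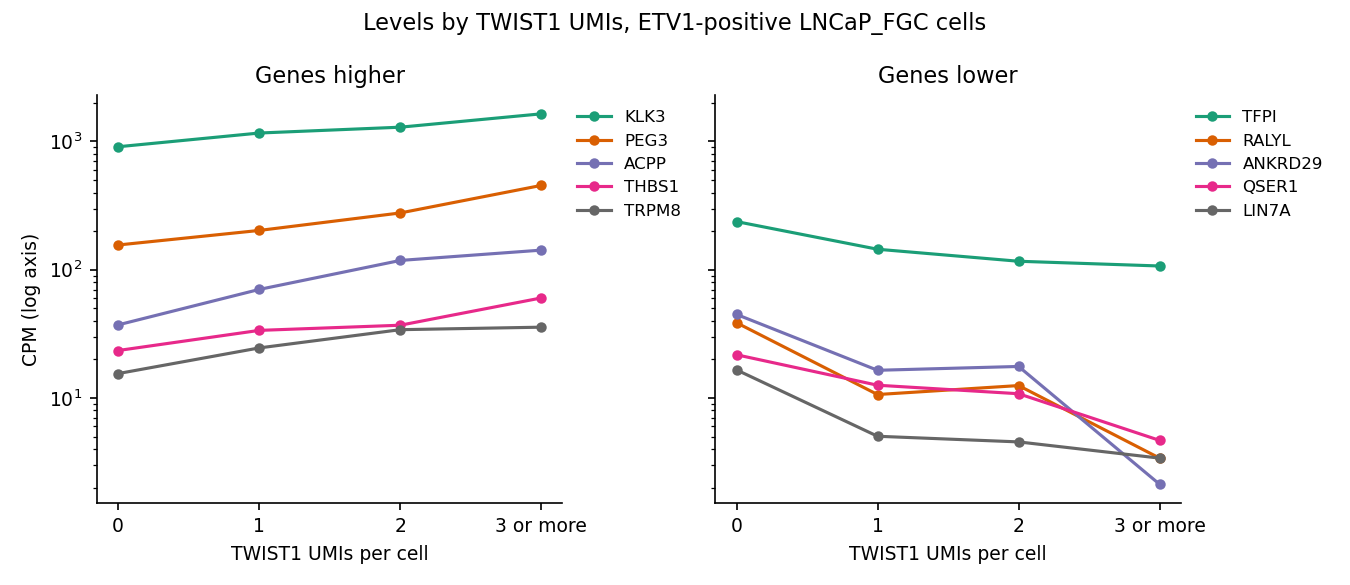
Level in CPM (log axis) of 5 genes higher and 5 lower in TWIST1-positive cells, by TWIST1 UMIs per cell, ETV1-positive LNCaP_FGC cells. Each point is 1 CPM value from UMIs summed over the class: ACPP goes from 37.1 to 142 CPM and ANKRD29 from 44.8 to 2.12 CPM.

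E-box letters of kinds that TWIST1 dimers are known to bind (CATATG, and CATCTG on either strand, the latter reading CAGATG on the other) were looked for in the RefSeq promoters of GRCh38.p14, 250 bases before to 50 after each start. They were in 662 of 7234 promoters of tested genes (9.15%), in 8 of 63 for the higher genes (12.7%, 5.65 to 23.5) and in 9 of 143 for the lower genes (6.29%, 2.92 to 11.6), intervals that all contain the overall share. Of 13 genes with a promoter that were looked at one by one, chosen after their values were seen, the letters lay before the start in RIPOR2, H2AFJ and TFPI. The windows are shown, with the motif in capitals, because they belong to higher genes and to a lower one. A match describes letters only and is no evidence of binding. The RIPOR2 windows are on the minus strand at chr6:24936021-24936080 and chr6:24935993-24936052, with motifs starting 93 and 65 bases before the start site. The H2AFJ window is on the plus strand at chr12:14774155-14774206 (231 bases before) and the TFPI window on the minus strand at chr2:187554559-187554618 (156 bases before).
RIPOR2 first window: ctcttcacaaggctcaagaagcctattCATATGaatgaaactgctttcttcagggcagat
RIPOR2 second window: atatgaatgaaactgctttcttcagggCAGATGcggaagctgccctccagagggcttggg
H2AFJ: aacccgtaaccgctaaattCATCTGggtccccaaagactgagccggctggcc
TFPI: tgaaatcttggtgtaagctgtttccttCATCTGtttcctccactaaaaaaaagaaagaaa

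Gene lists were then counted over members with at least 10 UMIs in LNCaP_FGC. Of all 16521 such genes, 4.93% were at least 1.5-fold higher and 11.4% at least 1.5-fold lower, with a median log2 ratio of -0.09. Among the partners of TWIST1, none of the 7 measured was higher and 1 was lower. The E protein genes TCF3 and TCF12 were at ratios of 0.846 (0.755 to 0.946) and 0.920 (0.773 to 1.09), and TCF4 was near its counting limit with 31 and 70 UMIs. The inhibitors ID1 and ID3 were at 1.18 (1.07 to 1.30) and 1.37, and at 1.17 and 1.19 after matching. At equal depth ID1 turned to 0.928 (0.789 to 1.09), so no direction is read for it, and ID3 was at 1.27. The lower member, ID4, named after its values were seen, had 7 against 50 UMIs.

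EMT genes were spread in both directions. Of 34 listed, 17 were measured, 3 were higher and 3 lower, with a median log2 ratio of 0.12. After thinning the median was -0.12. The higher members were THBS1, the zinc finger repressor gene SNAI1 (18 against 27 UMIs, chosen after its values were seen) and FN1, which encodes fibronectin. FN1 was at 171 against 90.7 CPM, 1.88-fold higher (1.77 to 2.01) and 1.44-fold (1.35 to 1.54) after matching. Smooth muscle actin ACTA2 was 3.01-fold lower (2.33 to 3.93). VIM, the mesenchymal intermediate filament gene, was at 8.71 against 8.19 CPM (ratio 1.06, 0.817 to 1.38) and at 1.42 (1.08 to 1.85) after matching. At equal depth its ratio was 0.515 (0.292 to 0.854), and 3.58% against 7.88% of cells had a UMI, so its direction turned with the setting and no order is read. N-cadherin CDH2 had no UMI in any cell and ZEB1 had 0 against 9. SNAI2 was at a ratio of 0.827 with 27 and 85 UMIs. In all, 10 of the 34 members were at 0 in both groups, among them TWIST2, PRRX1 and ZEB2.

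Epithelial genes were close to level. None of 26 junction and keratin genes was past the fold in either direction, and their median log2 ratio was 0.00. E-cadherin CDH1 was at 122 against 142 CPM (ratio 0.860, 0.805 to 0.919), and at 0.954 (0.887 to 1.02) after matching. EPCAM was at the low end, at 0.726 (0.646 to 0.815) and 0.829 after matching. GRHL2, a factor of epithelial identity, was at 1.21 (1.10 to 1.32).

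**Figure D5:**
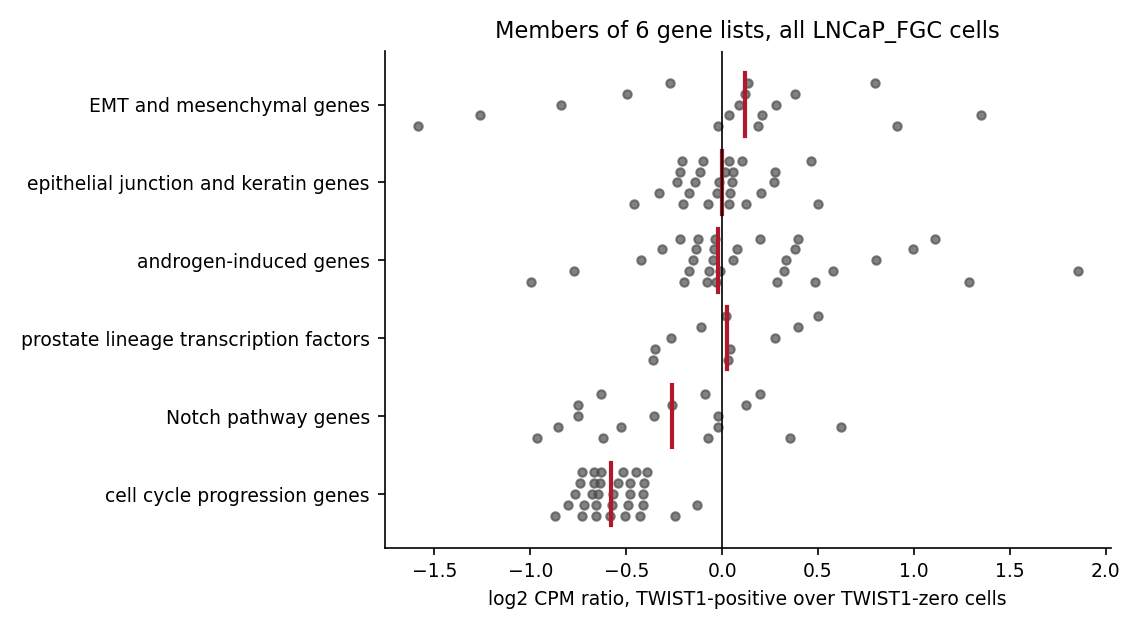
log2 CPM ratio of TWIST1-positive over TWIST1-zero cells (x axis) for the measured members of 6 gene lists, all LNCaP_FGC cells. Each grey point is a gene and each red bar the list median: 0.12 for EMT genes, 0.00 for epithelial genes, -0.02 for androgen-induced genes, 0.03 for lineage factors, -0.26 for Notch genes and -0.58 for cell cycle genes.

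Reported cofactors and targets of TWIST1 gave 2 higher and 0 lower of 16 measured, with a median log2 ratio of -0.04. The Polycomb gene BMI1 was at 0.757 and the NuRD subunit gene RBBP7 at 0.740, and they were at 0.855 and 0.859 after matching. The higher members were the chemokine genes CCL2 and CXCL8, named after their values were seen, with 12 and 8 UMIs against 3 and 3. HOXA9 had 4 against 3 UMIs.

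Genes of 7p21 around TWIST1 were mixed. Of 31 listed, 17 were measured, 3 were higher (ETV1, AGR2 and DNAH11, the last chosen after its values were seen, at 10 and 12 UMIs) and 2 lower. AGR2, a disulfide isomerase of secretory epithelium, was at 130 against 73.0 CPM, 1.78-fold higher (1.65 to 1.91) and 1.53-fold (1.42 to 1.65) after matching. The direct neighbour HDAC9 had 0 against 2 UMIs. DGKB, a diacylglycerol kinase gene beside ETV1, was at 1.22 overall and 0.98 after matching.

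Androgen-driven genes spread in both directions. The androgen-induced list had a median log2 ratio of 0.18 among ETV1-positive cells, against -0.02 over all cells. Its summed level was 1.24-fold higher, at 5465 against 4415 CPM, of which KLK3 made up 1276 and 592. KLK2 was at 1.30 (1.23 to 1.37), TMPRSS2 at 1.40 (1.31 to 1.49), and GNMT, a glycine methyltransferase, at 0.586. KLK2 and KLK3 are close paralogues whose reads can be hard to assign. PEG3 was the sole higher member of the 10 UGT2B and androgen-repressed genes, of which 3 were lower, and UGT2B15 was at 0.763 (0.635 to 0.913). Lineage transcription factors were nearly level, with 0 of 10 past the fold and a median of 0.03. FOXA1, a pioneer factor of prostate epithelium, was at 228 against 225 CPM (ratio 1.01, 0.965 to 1.06), and the homeobox gene HOXB13 at 161 against 156 CPM (ratio 1.03, 0.971 to 1.09). FOLH1, which encodes prostate-specific membrane antigen, was at 0.876 (0.834 to 0.919).

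A list of 10 genes lower in ETV1-negative cells of LNCaP_FGC had been chosen on this same library, so its direction is not independent evidence. All 10 were higher in TWIST1-positive cells, with a median log2 ratio of 1.18. Among ETV1-positive cells the median was 0.60 with 5 past the fold, and after matching it was 0.55. SYT4, a synaptotagmin gene of this list, was at 143 against 70.6 CPM, 2.03-fold higher (1.89 to 2.18), and 1.40-fold both among ETV1-positive cells and after matching. Of the other ETS family genes EHF was at 0.784 and ELF1 at 1.27.

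Cell cycle genes were lower as a group, as the phase calls were. Of 32 cell cycle progression genes 0 were higher and 16 lower, with a median log2 ratio of -0.58, and -0.27 after matching on ETV1 status, phase and depth together. CDC20, an activator of the anaphase-promoting complex, was 1.75-fold lower and 1.24-fold lower after matching. The proliferation marker MKI67 was at 115 against 162 CPM, 1.41-fold lower and 1.16-fold lower (1.08 to 1.24) after matching. Of 24 replication genes 2 were lower, the GINS complex genes GINS2 and GINS4. Several phase genes are themselves on these lists, so phase and list are not separate measurements.

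Signalling lists were mixed. Of 17 Notch genes 1 was higher and 6 lower, with a median of -0.26 and of -0.04 after matching. The ligand gene JAG1 was 1.54-fold higher (1.39 to 1.69), but within the fold at 1.27 both among ETV1-positive cells and after matching, and HES6, a HES family factor, 1.95-fold lower (1.76 to 2.17) and 1.35-fold lower after matching. Of 28 axon guidance genes 5 were higher and 3 lower. SEMA3C, a secreted semaphorin, was 1.62-fold higher (1.47 to 1.78), and EPHA7 1.59-fold higher. Both were within the fold among ETV1-positive cells, at 1.33 and 1.14, and after matching, at 1.28 and 1.16. Of 14 neuroendocrine and neuronal genes 1 was higher and 5 lower, and DLL3 was at 1.04. FGF, BMP and TGF-beta genes gave 1 higher and 2 lower of 28, WNT genes 1 and 1 of 25, and growth factor receptor genes 0 and 2 of 11, with EGFR at 1.21 and ERBB2 at 1.24.

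Both groups had low levels of marker genes of other cell types. Fibroblast and smooth muscle markers summed to 14.4 against 27.4 CPM, of which ACTA2 made up 6.97 and 20.9, with COL1A2, DCN, DES and C7 at 0. Immune markers summed to 2.15 against 1.93 CPM, with PTPRC, CD3D and CD3E among 8 at 0, and endothelial and erythroid markers to 5.02 against 3.58 CPM. Basal epithelial markers summed to 33.2 against 32.7 CPM, with KRT5 and TP63 at 0.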

How the data were processed

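Per the labels and the study's methods, Cell Ranger 6.0 produced UMI counts on GRCh38 and Seurat 5.011 was used downstream; no source used here names the annotation release. The authors filtered cells on genes, reads, hemoglobin, ribosomal and mitochondrial percent and doublet score, drew 1850 cells per line and thinned counts to a common mean, so depth is not that of the raw library. The deposited values are UMI counts, 35150013 in LNCaP_FGC and 35149989 in LNCaP_C4-2B over 36601 genes, and 1 UMI of LNCaP_FGC is 0.0284 CPM.

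Phase and clusters were computed with Seurat 5.3.0 in R 4.3.3 (phase scores regressed, 3000 variable genes less TWIST1 and ETV1, 10 principal components, resolution 0.5), and all else with SciPy 1.17.1 in Python 3.11.15. No cells were removed and no doublet caller was run. The ratio script was tested on simulated data. No value column was left unmapped. Gene positions came from GENCODE on GRCh38 and promoters from RefSeq, matched by symbol. The members and lists were chosen with earlier results of these data known. Genes were named as the 12 highest and lowest pooled and matched ratios at 20 CPM or more, up to 2 at each end of each of the 36 lists, and a fixed set; the rule leaves out TWIST1 and ribosomal, mitochondrial and unnamed genes. A few genes that the rule names are not reported here. Alternatives are given in the closing section.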

Additional observations from a re-analysis of the deposited data

How the results depend on the processing

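The count of higher and lower genes depended on the settings. It was 131 and 311 after thinning, 130 and 196 without ribosomal and mitochondrial genes, 180 and 502 when TWIST1-positive meant at least 2 UMIs, 41 and 95 among ETV1-positive cells, 32 and 44 after matching, and 125 and 113 relative to the median gene. Among ETV1-zero cells, with 27 TWIST1-positive cells, it was 806 and 1139. With the smaller fold tried it was 324 and 994, with a minimum of 2 CPM 251 and 580, and with no minimum beyond 1 UMI 2842 and 5842. The ETV1 ratio was 2.18 relative to the median gene and 2.26 with at least 2 TWIST1 UMIs. The ETV1-positive share of TWIST1-positive cells was 88.9% after thinning and 84.6% if at least 2 ETV1 UMIs were asked for. With at least 2 TWIST1 UMIs, 59.2% of cells were G1 and 16.8% G2M. The EMT median was -0.12 after thinning, 0.26 with at least 2 TWIST1 UMIs and 0.52 in ETV1-zero cells, and the androgen-induced median 0.18 in ETV1-positive cells and 0.12 after matching. Among named genes and list medians past the fold, directions reversed for the immune marker median with at least 2 TWIST1 UMIs (-0.32) and, in ETV1-zero cells, for the ratios of ANKRD29 (1.06), GINS4 (1.33), HES6 (1.18) and HPGD (0.727). Values within the fold turned too, among them VIM (0.515) and ID1 (0.928) after thinning, and EZH2 (1.22), MAF (1.08) and ATF3 (1.46) in ETV1-zero cells. The cause was not tested.

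Of 44 named genes past the fold, 44 kept their direction in each alternative other than ETV1-zero cells (40), and 27 to 43 stayed past the fold in those. The alternatives reuse the cells on which these genes were found past the fold, so they are not independent evidence. With 1 library and no replicate, no spread between cultures can be given. No paired analysis was possible because each line has 1 library and no test was run. Depth limits genes under about 10 UMIs, where no difference can be read.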

Other observations

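Nuclear and prostate noncoding RNAs went in both directions, with none of 9 measured members past 1.5-fold. Their summed level was 29747 against 20929 CPM, of which MALAT1 made up 26535 and 18561. MALAT1 was at a ratio of 1.43 overall and 1.22 after matching, and NEAT1, the scaffold RNA of paraspeckles, at 1.45 and 1.20. KCNQ1OT1 was at 0.673 (0.605 to 0.746) and DRAIC at 0.770 (0.659 to 0.898). RMRP, the RNA of the mitochondrial RNA processing ribonuclease, was 2.09-fold lower (1.80 to 2.45) and 1.78-fold lower after matching. Ribosomal protein genes had a median log2 ratio of 0.14 with 0 of 84 past the fold, and mitochondrially encoded genes one of -0.01.

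Stress and metabolic lists were close to the median gene. Integrated stress response genes gave 0 calls of 24 and cholesterol synthesis genes 1 lower of 23, with median log2 ratios of -0.13 and -0.17. Heat shock and early response genes gave 3 higher and 1 lower of 18. The higher ones, named after their values were seen, were the early response genes FOS, FOSB and EGR1, with 14, 11 and 5 UMIs against 11, 9 and 8. The lower one, the chaperone gene HSP90AA1, was at 848 against 1366 CPM, 1.61-fold lower (1.57 to 1.65) and 1.36-fold lower (1.33 to 1.40) after matching. Interferon response genes gave 1 higher and 5 lower of 18. IFITM2, an antiviral membrane protein gene with close paralogues, was 2.03-fold lower (1.78 to 2.31) and 1.53-fold lower after matching. MHC class I, BCL2 family, Polycomb and metallothionein genes had no member past the fold.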
